A study of Gallus gallus with 6 samples.

Results

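Homeobox genes encode transcription factors that bind DNA through a homeodomain and give embryonic fields their regional identity. In the developing face they mark the mesenchyme, epithelium and placodes of the separate prominences, and several of them are needed for jaws, palate and teeth. *MSX*, *PITX*, *LHX6*, *LHX8*, *BARX*, *PRRX* and *SHOX* genes are known from pharyngeal arch and facial mesenchyme. The MEIS, PBX, PKNOX and IRX factors share the TALE type of homeodomain, and MEIS and PBX proteins act as partners of other homeodomain proteins. The genes described here were chosen by symbol, as members of the MSX, PITX, LHX, LMX, PAX, BARX, EMX, OTX, PRRX, SHOX, MEIS, PBX, PKNOX, IRX, TSHZ, SATB, ZFHX, ZEB, HOX, NKX, POU, CUX, HHEX and ISL families and the family of *SIX6*. The rule found 40 of the 10337 genes with values, on 16 chromosomes. The 36 members named here include 9 genes grouped here as arch factors (*BARX2*, *HHEX*, *ISL1*, *LHX6*, *LHX8*, *MSX1*, *MSX2*, *PITX1* and *PITX3*), 8 grouped as mesenchyme factors (*PAX9*, *PRRX1*, *PRRX2*, *SATB1*, *SHOX*, *TSHZ1*, *TSHZ2* and *TSHZ3*) and 7 TALE factors (*IRX1*, *IRX2*, *MEIS1*, *MEIS2*, *PBX3*, *PKNOX1* and *PKNOX2*). The others were 6 large zinc finger and CUT factors (*CUX1*, *CUX2*, *ZEB1*, *ZEB2*, *ZFHX3* and *ZFHX4*), 3 factors known from forebrain and eye (*EMX1*, *EMX2* and *SIX6*), and *LHX3*, *NKX6-2* and *POU2F1*. *PAX9* belongs to the paired box family by its paired domain and has no homeodomain. *BARX1*, *SHOX2*, *SIX2*, *PAX3*, *PAX6*, *PAX7*, *OTX2* and the HOX genes were not analysed here.

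RNA was sequenced from 3 facial prominences of talpid2 and control chick embryos, the frontonasal (FNP), the maxillary (MXP) and the mandibular (MNP), at stage HH25. talpid2 is a naturally occurring chick mutant with a deletion in *C2CD3*, a gene needed to build cilia, and its embryos have facial clefts. Each of the 6 libraries (talpid2 FNP, control FNP, talpid2 MXP, control MXP, talpid2 MNP and control MNP) was made from tissue of 8 embryos combined before sequencing. There was 1 library per genotype and prominence, so no difference between talpid2 and control has a replicate check. A value is a log2 level relative to the gene's own median over the 6 libraries, and a log2 ratio is the talpid2 value minus the control value of the same prominence. Levels of different genes cannot be compared on this scale.

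Reads could be recovered from the values of 25 of the 40 homeobox genes and of 5205 genes in all (50.4%), and these give the depth behind a ratio. The recovered reads summed to between 1263261 and 1605866 per library, and depths differed by at most 1.27 times. Values below 1 on the authors' scale had been set to 1, and a library at this floor held less than 1.15 reads of the gene. Of 14 listed erythroid genes 7 had values, with median log2 ratios of talpid2 to control of -1.48, -1.04 and -0.67 in FNP, MXP and MNP. Their part in the results below was not tested. *C2CD3* had log2 ratios of -0.18, -0.41 and -0.16, which do not check the deletion, since a gene's summed reads do not show it. The summed recovered reads of the 6 of 19 neural markers with reads, scaled by depth, were 508 and 590 in the talpid2 and control FNP, 459 and 395 in MXP and 946 and 1004 in MNP. *STMN2* alone held 255 and 261 unscaled reads in FNP. For the uncorrected exact test on reads, given below, the shares in brackets are of all genes with reads. In FNP 4 of the 6 were lower in talpid2 (11.6%) and 0 higher (10.1%). In MXP 0 were lower (8.59%) and 1 higher (8.63%), and in MNP 1 was lower (9.97%) and 0 higher (8.32%). In tissue pieces of this kind, fewer cells of a type and less RNA per cell cannot be told apart.

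**Figure D1:**
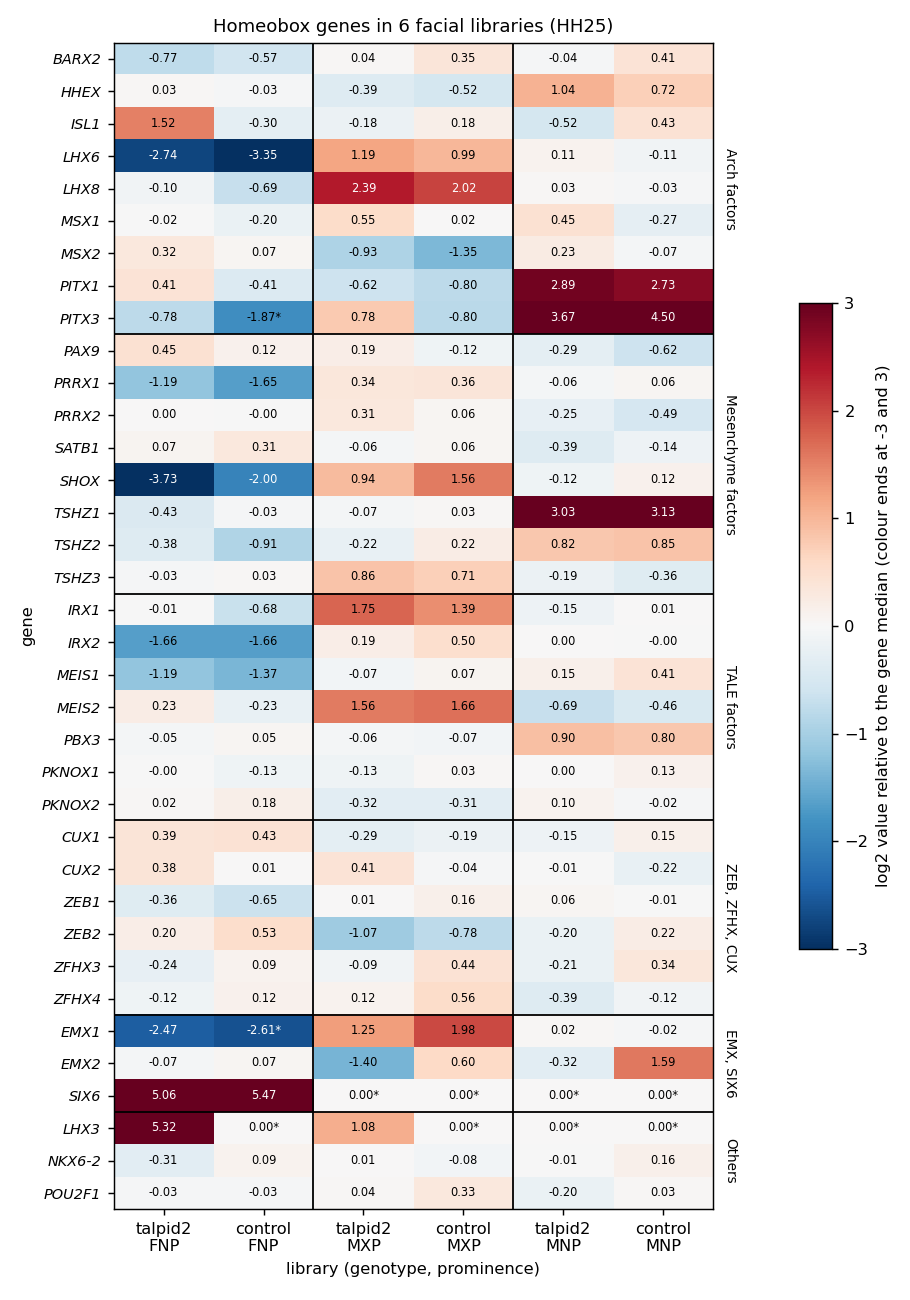
Log2 value of 36 homeobox genes (rows, by group) in each of the 6 libraries (columns, talpid2 left of control within each prominence), relative to the gene's median; an asterisk marks a library at the floor. *PITX1*, *PITX3* and *TSHZ1* were high in both MNP libraries, *LHX8*, *MEIS2* and *IRX1* in both MXP libraries and *SIX6* in both FNP libraries.

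The first comparison asks how the homeobox genes divide the 3 prominences. It was answered with limma (prominence and genotype as terms, fitted on all 10337 genes, Benjamini-Hochberg adjusted p of at most 0.05), in which the talpid2 and the control library of a prominence serve as its 2 samples. At least 1 of the 3 contrasts between prominences was called for 24 of the 40 homeobox genes, against 13.7% of all genes, and at least 2 contrasts for 19, against 7.89%. The median absolute difference of the homeobox genes was 0.60 for FNP minus MXP, 0.42 for MNP minus MXP and 0.55 for FNP minus MNP. Over all genes these medians were 0.13, 0.10 and 0.13. The number of calls fell when a library was left out. In the FNP and MXP contrast the count was 15 of 40 with all libraries, 11 without talpid2 FNP, 8 without control FNP, 5 without talpid2 MXP and 1 without control MXP. In the MNP and MXP contrast it was 13 with all libraries, 2 without talpid2 MNP and 0 without control MNP, talpid2 MXP or control MXP. In the FNP and MNP contrast it was 16 with all libraries and 4 without talpid2 MNP, 5 without control MNP, 8 without control FNP and 9 without talpid2 FNP, talpid2 MXP or control MXP.

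The mandibular prominence was marked by *PITX1*, *TSHZ1*, *PITX3*, *PBX3* and *HHEX*. *PITX1*, a paired-like factor known from the mandible and the hindlimb, had log2 values of 2.89 and 2.73 in the talpid2 and control MNP, against -0.62 and -0.80 in MXP and 0.41 and -0.41 in FNP. Both mandibular libraries lay above the other 4. MNP minus MXP was 3.52 (SE 0.20, adjusted p = 0.00967, limma), and FNP minus MNP was -2.81 (SE 0.20, adjusted p = 0.00951). The span listed for *PITX1* overlaps *PCBD2* on the opposite strand, which itself had an MNP minus MXP difference of 0.95, and without strand in the counting their reads cannot be told apart.

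*TSHZ1*, a teashirt-type zinc finger factor, had 1090 and 1391 recovered reads in the talpid2 and control MNP, 124 and 133 in MXP and 92.8 and 148 in FNP. The difference was 3.11 (SE 0.11, adjusted p = 0.00519) for MNP minus MXP and -3.31 (SE 0.11, adjusted p = 0.00262) for FNP minus MNP. Its relative *TSHZ2* was also lower in FNP than in MNP (-1.48, SE 0.25, adjusted p = 0.0486), while its MNP minus MXP difference of 0.84 did not pass (SE 0.25, adjusted p = 0.205). *TSHZ3* was highest in the maxilla, with values of 0.86 and 0.71 in the talpid2 and control MXP against -0.03 and 0.03 in FNP and -0.19 and -0.36 in MNP (MNP minus MXP -1.06, SE 0.08, adjusted p = 0.0186).

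*PITX3*, known from lens, midbrain neurons and skeletal muscle, had 45.3 and 95.6 reads in the talpid2 and control MNP and at most 5.96 reads in any other library. The control MNP exceeded the control FNP, which was at the floor, by at least 30.4-fold (floor of 3 reads per library). FNP minus MNP was -5.41 (SE 0.65, adjusted p = 0.0240), and MNP minus MXP was 4.10 (SE 0.65, adjusted p = 0.0657), which did not pass. Of 17 muscle markers, 8 had values and none was at the floor in MNP. Of these 8, 6 were higher in MNP than in MXP in the same fit (2.65% of all genes). The summed reads of the 8, scaled by depth, were 1934 and 2216 in the talpid2 and control MNP, 735 and 1124 in FNP and 465 and 389 in MXP. Most of the FNP and MXP sums belong to *MYL4*, with 525 and 1081 unscaled reads in the talpid2 and control FNP and 359 and 280 in MXP. *MYL4* itself was not called between MNP and MXP (0.20, SE 0.29, limma adjusted p = 0.770). The part of the muscle markers in the *PITX3* values was not tested. *PBX3*, a TALE partner factor, had 842 and 939 reads in the talpid2 and control MNP, 422 and 422 in MXP and 411 and 531 in FNP (MNP minus MXP 0.92, SE 0.07, adjusted p = 0.0192). *HHEX*, known from endoderm, was also higher in MNP (1.34, SE 0.09, adjusted p = 0.0132), with 63 and 60 reads there and 22.9 and 20.9 in the talpid2 and control MXP.

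*LHX8*, *MEIS2* and *IRX1* were higher in the maxillary prominence than in both others, and *TSHZ3* and *LHX6* also passed both of these contrasts. *LHX8* had log2 values of 2.39 and 2.02 in the talpid2 and control MXP, -0.10 and -0.69 in FNP and 0.03 and -0.03 in MNP. FNP minus MXP was -2.59 (SE 0.15, adjusted p = 0.00829) and MNP minus MXP was -2.20 (SE 0.15, adjusted p = 0.0135). *LHX6*, which in the mouse is expressed with *LHX8* in the mesenchyme of both jaws, was shared more evenly between the jaws and was low in FNP. It had 79.3 and 62.7 reads in the talpid2 and control FNP, against 1259 and 1101 in MXP and 608 and 626 in MNP. All 3 contrasts of *LHX6* passed, at -4.14 (SE 0.13, adjusted p = 0.00343) for FNP minus MXP, -1.09 (SE 0.13, adjusted p = 0.0388) for MNP minus MXP and -3.05 (SE 0.13, adjusted p = 0.00443) for FNP minus MNP.

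*MEIS2*, a TALE partner factor, had values of 1.56 and 1.66 in the talpid2 and control MXP, 0.23 and -0.23 in FNP and -0.69 and -0.46 in MNP. MNP minus MXP was -2.18 (SE 0.20, adjusted p = 0.0224) and FNP minus MXP was -1.61 (SE 0.20, adjusted p = 0.0298). The FNP minus MXP call of *MEIS2* was lost when any 1 MXP or MNP library was left out. *IRX1* had 92.8 and 72.7 reads in the talpid2 and control MXP, 26.3 and 20 in FNP and 25.4 and 33.9 in MNP. Its FNP minus MXP difference was -1.92 (SE 0.22, adjusted p = 0.0272) and its MNP minus MXP difference was -1.64 (SE 0.22, adjusted p = 0.0474). The first call was lost when any 1 FNP or MXP library was left out. The second call was lost with a robust prior in the fit and when any 1 of the 6 libraries was left out. That difference was -1.30 without the talpid2 MNP and -1.98 without the control MNP. *IRX2* is listed next to *IRX1* on chromosome 2, 504.4 kb away, and was also lower in FNP than in MXP, while its contrast between the jaws did not pass (-0.35, SE 0.11, adjusted p = 0.213). *IRX2* had 71.5 and 86.5 reads in the talpid2 and control FNP, 268 and 333 in MXP and 241 and 286 in MNP. *ZFHX4*, a large zinc finger homeodomain factor, was lower in MNP than in MXP by a smaller step (-0.59, SE 0.08, adjusted p = 0.0438). This call was lost relative to *GAPDH* (-0.51) and when any 1 of the 6 libraries was left out.

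In the frontonasal prominence more homeobox genes were lower than higher. In FNP minus MXP, 15 homeobox genes were called (7.89% of all genes), of which 11 were lower (3.39% of all genes) and 4 higher (4.51%). In FNP minus MNP, 16 were called (10.2%), of which 13 were lower (4.91%) and 3 higher (5.25%). In MNP minus MXP, by contrast, the 13 called genes (4.64%) divided into 6 higher (2.65%) and 7 lower (1.99%). Relative to *GAPDH*, which itself differed by 0.30 for FNP minus MXP, -0.08 for MNP minus MXP and 0.38 for FNP minus MNP and shifts every gene by these amounts, 3 were higher and 21 lower in FNP minus MXP, 7 higher and 5 lower in MNP minus MXP, and 2 higher and 23 lower in FNP minus MNP. In FNP, 7 genes were lower than in both jaws (1.93% of all genes): *BARX2*, *EMX1*, *IRX2*, *LHX6*, *MEIS1*, *PRRX1* and *SHOX*. *PRRX1*, a paired-related factor of limb and facial mesenchyme, had log2 values of -1.19 and -1.65 in the talpid2 and control FNP, 0.34 and 0.36 in MXP and -0.06 and 0.06 in MNP (FNP minus MXP -1.77, SE 0.17, adjusted p = 0.0192). A listed gene on the opposite strand, ENSGALG00000023794, lies within its span and had a nearly equal difference of -1.80. *MEIS1* was lower by 1.28 than in MXP (the FNP minus MXP difference was -1.28, SE 0.13, adjusted p = 0.0216), and *BARX2*, a factor related to Drosophila Bar, had a difference of -0.87 (SE 0.08, adjusted p = 0.0202). *SHOX*, known from the limb skeleton, had 1 and 4 reads in the talpid2 and control FNP, 26.5 and 40.8 in MXP and 13 and 18.3 in MNP. *EMX1*, known from the forebrain, had 1 read in the talpid2 FNP and none above the floor in the control FNP, 13.7 and 22.8 reads in MXP and 6 and 6.92 in MNP. The control MXP exceeded the control FNP by at least 8.80-fold for *EMX1*.

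Few homeobox genes were higher in FNP. *SIX6*, known from eye, hypothalamus and pituitary, had 30.3 and 48.9 reads in the talpid2 and control FNP and was at the floor in the other 4 libraries, at least 10.5-fold lower in the talpid2 MXP and at least 14.1-fold lower in the control MXP. The fitted difference of 5.27 (adjusted p = 0.00326 against the MXP) rests on those floor values. *PAX9*, known from teeth and palate, was lower in MNP than in both other prominences, with 506 and 485 reads in the talpid2 and control FNP, 440 and 355 in MXP and 322 and 304 in MNP. FNP minus MNP was 0.74 (SE 0.05, adjusted p = 0.00986) and MNP minus MXP was -0.49 (SE 0.05, adjusted p = 0.0338). *SATB1*, a chromatin organiser, was higher in FNP than in MNP (0.46, SE 0.06, adjusted p = 0.0332), a call that was lost relative to *GAPDH* (0.08) and when any 1 of the 6 libraries was left out.

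*MSX2* and *ZEB2* were lower in MXP than in both other prominences. *MSX2*, which responds to BMP signals, had values of -0.93 and -1.35 in the talpid2 and control MXP, against 0.32 and 0.07 in FNP and 0.23 and -0.07 in MNP. FNP minus MXP was 1.33 (SE 0.07, adjusted p = 0.00680) and MNP minus MXP was 1.22 (SE 0.07, adjusted p = 0.00967). *MSX1* did not share this pattern: its contrasts were -0.39 for FNP minus MXP and -0.19 for MNP minus MXP (SE 0.15, adjusted p = 0.211 and 0.575). *ZEB2*, a zinc finger homeodomain repressor known from neural crest, was 1.29 higher in FNP and 0.93 higher in MNP than in MXP (SE 0.06, adjusted p = 0.00642 and 0.0143). *CUX1* was 0.65 higher in FNP than in MXP (SE 0.09, adjusted p = 0.0357), a call that was lost relative to *GAPDH* (0.35) and when any 1 of the 6 libraries was left out. A listed gene on the same strand, ENSGALG00000021636, overlaps its span and had a difference of 0.69, so the reads of *CUX1* are uncertain.

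**Figure D2:**
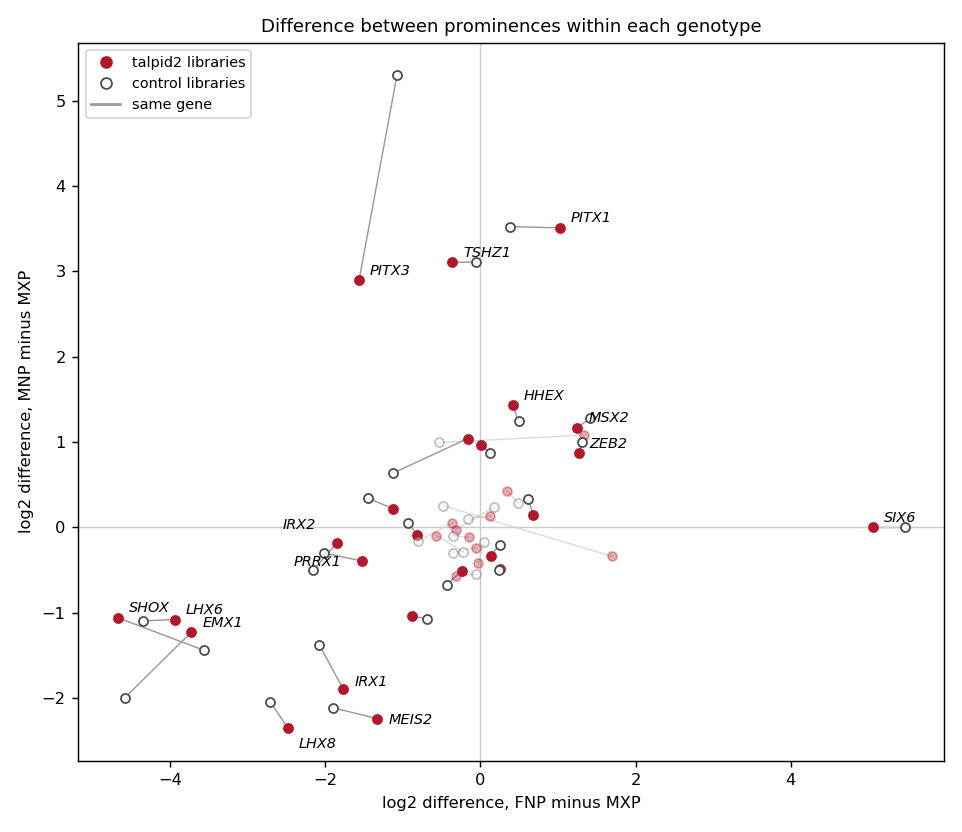
Difference of the named homeobox genes between prominences (horizontal axis FNP minus MXP, vertical axis MNP minus MXP, log2), computed within the talpid2 libraries (filled) and within the control libraries (open) and joined by a line; *LHX3* is left out, and genes without a called contrast are pale. *PITX1* and *TSHZ1* sit at 3.51 and 3.10 on the vertical axis in talpid2 and at 3.52 and 3.11 in control, while *LHX6* sits at -3.93 in talpid2 and -4.34 in control on the horizontal axis.

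MNP minus MXP was 3.51 in talpid2 and 3.52 in control for *PITX1*, 3.10 and 3.11 for *TSHZ1*, and -2.36 and -2.05 for *LHX8*. FNP minus MXP was -3.93 in talpid2 and -4.34 in control for *LHX6*, and -1.33 and -1.89 for *MEIS2*. Over all 120 differences of the 40 genes, 98 had the same sign in both genotypes (81.7%, against 69.0% over all genes).

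Other transcription factors of the arch and facial mesenchyme, a list of 25 genes of which 18 had values, also differed between prominences. Past the limma threshold in MNP minus MXP, 4 were higher (2.65% of all genes) and 2 lower (1.99%). In FNP minus MXP 7 were higher (4.51%) and 5 lower (3.39%), and in FNP minus MNP 5 were higher (5.25%) and 9 lower (4.91%). *HAND2* had log2 values of 6.91 and 6.70 in the talpid2 and control MNP and at most 0.14 elsewhere, and *DLX6* had 3.63 and 3.41 there and at most 0.04 elsewhere. *ALX1* had 2.16 and 1.94 in the talpid2 and control FNP, 0.08 and -0.08 in MXP and -1.56 and -1.73 in MNP. Of 5 frontonasal markers 3 had values. In FNP minus MXP 2 of these were higher (4.51% of all genes). The third, *ALDH1A2*, was lower (-2.93, SE 0.14, limma adjusted p = 0.00620). Of 6 mandibular markers 4 had values, and all 4 were higher in MNP minus MXP (2.65%). *DLX1* had 15 and 20 reads in the talpid2 and control FNP, 1754 and 1584 in MXP and 1129 and 1244 in MNP. *TBX22* was highest in MXP, at 1.47 and 1.56 in talpid2 and control.

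The second comparison is between talpid2 and control within each prominence. A ratio of at least 2-fold (absolute log2 ratio of at least 1) was found for 4 of the 40 homeobox genes in FNP (1.86% of all genes), 3 in MXP (1.72%) and 1 in MNP (1.54%). The FNP had 3 higher (*LHX3*, *ISL1* and *PITX3*, 0.813% of all genes) and 1 lower in talpid2 (*SHOX*, 1.04%). For *LHX3* and *PITX3* the control FNP was at the floor, and *PITX3* is counted on 1.94 reads in talpid2. The MXP had 2 higher (*LHX3* and *PITX3*, 0.9%) and 1 lower (*EMX2*, 0.822%), where *LHX3* is counted on 2 reads against a library at the floor and has no measured fold. The MNP had 0 higher (0.6%) and 1 lower (*EMX2*, 0.938%). Every one of these genes is low, and none lay within the authors' limits in all 6 libraries. With a pseudocount of 10 reads the counts were 2, 1 and 1. Over all 40 homeobox genes the median absolute log2 ratio was 0.31 in FNP, 0.29 in MXP and 0.21 in MNP, against 0.12, 0.12 and 0.11 over all genes.

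On the recovered reads, the 2-sided exact Audic-Claverie test compared both libraries of a prominence, at p of at most 0.05 without correction. It was passed in FNP by 10 of 25 homeobox genes (21.7% of all genes with reads), 7 higher (10.1%) and 3 lower (11.6%) in talpid2. In the MXP 8 passed (17.2%), 4 higher (8.63%) and 4 lower (8.59%), and in MNP 6 passed (18.3%), 3 higher (8.32%) and 3 lower (9.97%). In all, 13 of the 25 passed in at least 1 prominence, against 42.1% of all genes with reads. After Benjamini-Hochberg adjustment over the 5205 genes with reads, 4 passed in FNP (9.97%), 4 in MXP (5.82%) and 4 in MNP (6.4%). These are 8 different genes (17.5% of all genes with reads passed in at least 1 prominence). The test takes counting error as the only source of variation and compares libraries, not genotypes. At least 2 prominences were passed without correction by 7 genes (12.6% of all genes with reads): *MSX1*, *PAX9*, *LHX6*, *CUX2*, *ZEB2*, *EMX2* and *TSHZ2*. *MSX1*, *PAX9*, *LHX6* and *ZEB2* passed in all 3 (2.52%).

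*MSX1*, a homeobox gene of the growing facial mesenchyme that responds to BMP signals and is needed for teeth and palate, was higher in talpid2 in each prominence. It is listed on chromosome 4 from 81774811 to 81777300 (plus strand) of the Ensembl chick genome used by the authors, whose assembly is not named. It had 529 and 564 reads in the talpid2 and control FNP, 813 and 566 in MXP and 778 and 564 in MNP, in libraries of unequal depth. The log2 ratio was 0.18 in FNP (0.01 to 0.35, the 95% interval from counting error; exact p = 0.0426, adjusted p = 0.208), 0.53 in MXP (0.37 to 0.68; exact p = 1.99e-11) and 0.72 in MNP (0.56 to 0.88; exact p = 1.66e-19). These correspond to 1.13-fold, 1.44-fold and 1.65-fold. The ratio in FNP was below that in MNP by a test of the difference itself (FNP minus MNP -0.54, 2-sided exact conditional test, adjusted p = 0.000626 over 5205 genes and 3 pairs of prominences). The difference between FNP and MXP (-0.35, adjusted p = 0.0908) and that between MNP and MXP (0.19, adjusted p = 0.523) did not pass the exact test. Among the 25 homeobox genes with reads, *MSX1* was the 1 gene called by this test after adjustment. The other 15 homeobox genes had no recovered reads and could not be tested. Of all genes with reads, the test called 3.17% for FNP and MNP, 2.98% for FNP and MXP and 2.0% for MNP and MXP. Without correction the test was passed by 3 homeobox genes for FNP and MNP (12.6% of all genes with reads), 4 for FNP and MXP (14.1%) and 0 for MNP and MXP (10.5%). *MSX2*, for which no reads were recovered, had log2 ratios of 0.26, 0.42 and 0.30 in FNP, MXP and MNP.

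*PAX9* was higher in talpid2 in every prominence. The log2 ratio was 0.33 in FNP (0.15 to 0.51; exact p = 0.000313), 0.31 in MXP (0.11 to 0.52; exact p = 0.00244) and 0.33 in MNP (0.10 to 0.56; exact p = 0.00407). The adjusted p passed in FNP (0.00576) and the MXP (0.045) and missed in MNP (0.0586). *LHX6* was higher in talpid2 at 0.61 in FNP (0.11 to 1.11; exact p = 0.0171), where it is low, 0.20 in MXP (0.08 to 0.32; exact p = 0.000906) and 0.21 in MNP (0.05 to 0.38; exact p = 0.0112), and its adjusted p passed in MXP only (0.0214). *CUX2*, a CUT homeodomain factor known from neurons and limb, had ratios of 0.37 in FNP (exact p = 0.0239), 0.45 in MXP (exact p = 0.00821) and 0.21 in MNP (exact p = 0.243), and none passed after adjustment.

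*ZEB2* was lower in talpid2 in each prominence. It had 409 and 622 reads in the talpid2 and control FNP, 177 and 217 in MXP and 330 and 527 in MNP. The log2 ratio was -0.33 in FNP (-0.51 to -0.15; exact p = 0.000272), -0.29 in MXP (-0.59 to 0.003; exact p = 0.0478) and -0.42 in MNP (-0.63 to -0.22; exact p = 2.63e-05). The interval in MXP reached just across 0, and the adjusted p passed in FNP and MNP only. *ZEB1*, its paralogue, had ratios of 0.29, -0.16 and 0.06. The large zinc finger factors *ZFHX3* and *ZFHX4*, without recovered reads, had ratios of -0.33, -0.54 and -0.55 and of -0.24, -0.44 and -0.28 in FNP, MXP and MNP.

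*EMX2*, a homologue of Drosophila empty spiracles known from forebrain and urogenital development, had the largest falls that passed the test. It is listed on chromosome 6 from 30759545 to 30764733 (plus strand). It had 17.2 and 77.4 reads in the talpid2 and control MNP, 7.96 and 32.0 in MXP and 19.3 and 25.6 in FNP. The control MNP was the highest of the 6 libraries and the talpid2 MXP the lowest. The log2 ratio was -1.92 in MNP (-2.76 to -1.15; exact p = 2.52e-08, adjusted p = 3.28e-06), -2.0 in MXP (-3.33 to -0.85; exact p = 0.000117, adjusted p = 0.00497) and -0.13 in FNP (-1.07 to 0.77; exact p = 0.696). talpid2 thus held 0.265 and 0.250 of the control level in MNP and MXP. The ratio in FNP exceeded that in MXP by 1.87 and that in MNP by 1.78, differences that did not pass after adjustment (exact conditional test, adjusted p = 0.188 and 0.0910). Of the 12 forebrain markers, 5 had values, and 3 of these are *EMX1*, *EMX2* and *SIX6* themselves. *EMX1* had ratios of -0.73 in MXP and 0.05 in MNP (exact p = 0.146 and 1).

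**Figure D3:**
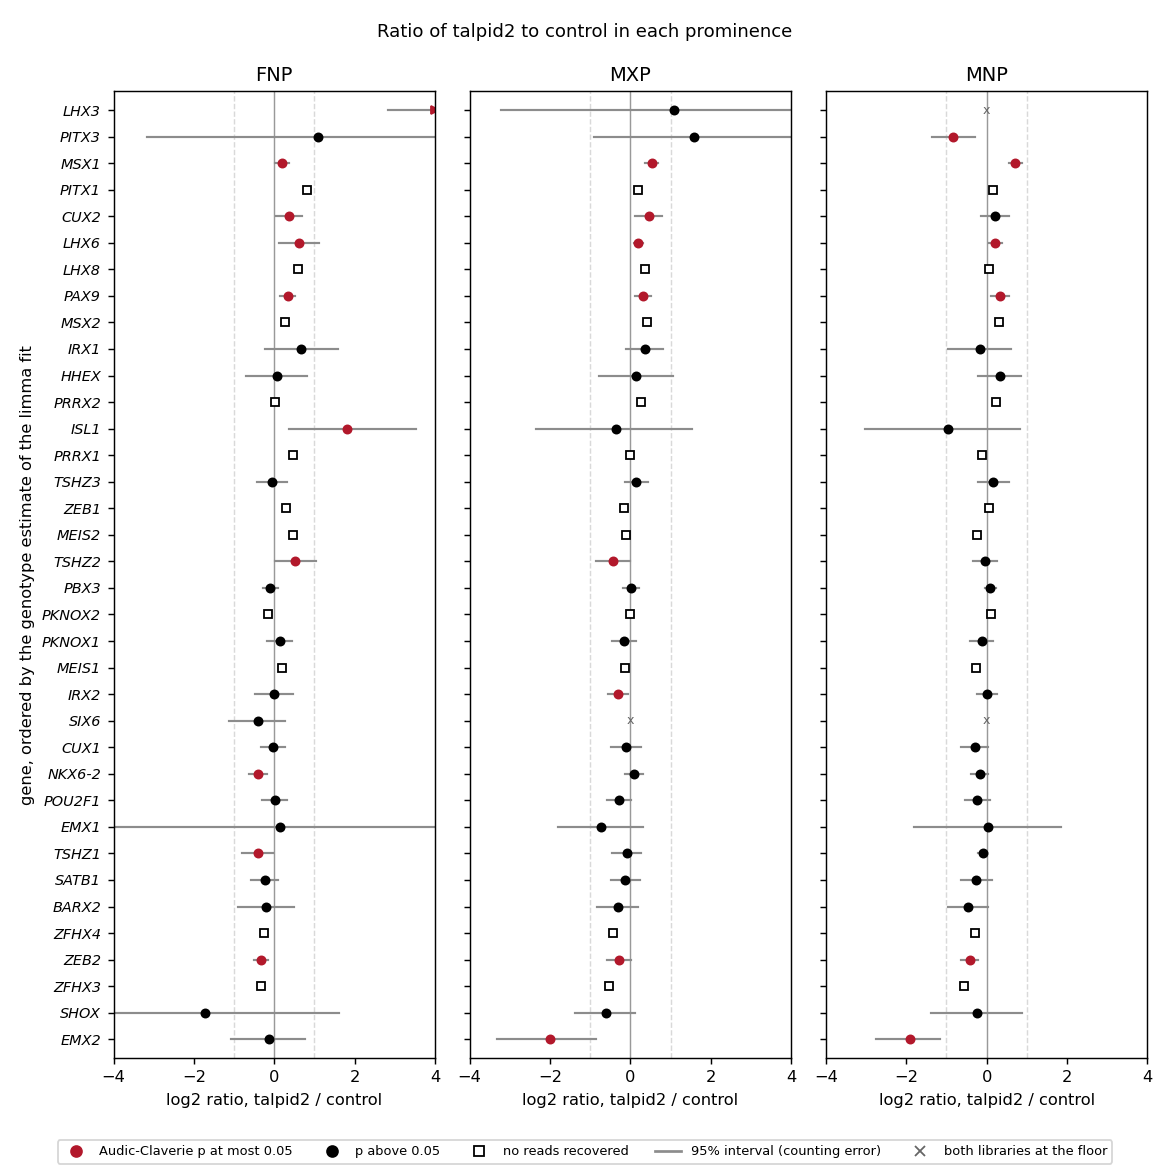
Log2 ratio of talpid2 to control (horizontal axis) for 36 homeobox genes (rows, from the highest genotype estimate at the top) in FNP, MXP and MNP; bars are 95% intervals from counting error, drawn up to -4 and 4, for genes with recovered reads, and an arrow marks *LHX3* at 5.32, a ratio to a control library at the floor that stands for at least 14.6-fold. *MSX1* lies at 0.18, 0.53 and 0.72 and *EMX2* at -0.13, -2.0 and -1.92 in the 3 panels.

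*LHX3*, a LIM homeodomain factor known from the pituitary and motor neurons, gave the highest ratio. It had 36.4 reads in the talpid2 FNP and was at the floor in the control FNP, at least 14.6-fold higher in talpid2 (exact p = 1.72e-11 against the floor). The talpid2 MXP held 2 reads and the other 4 libraries none above the floor, so no ratio is given for the jaws. *CGA*, a pituitary hormone subunit chosen after its values were seen, had 86.1 and 5.48 reads in the talpid2 and control FNP, at most 6 in any other library, and a log2 ratio of 4.25. Of 11 pituitary markers, a list also chosen after values were seen, 3 had values. The others were *HESX1*, with 51.8 and 60.6 reads in the talpid2 and control FNP, and *FOXL2*, with 112 and 125. Neither was highest in FNP alone. *HESX1* had 42.3 and 54.3 reads in the talpid2 and control MXP and 49.4 and 62.1 in MNP. *FOXL2* had 1223 and 1822 in MXP and 132 and 149 in MNP. Whether *LHX3* reads came from pituitary tissue in the dissected piece was not tested. *SIX6*, also known from the pituitary, had a ratio of -0.42 in FNP (-1.12 to 0.27; exact p = 0.196).

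*ISL1*, a LIM homeodomain factor of motor neurons and pharyngeal arch, had 16.3 and 5.58 reads in the talpid2 and control FNP, 5.20 and 6.70 in MXP and 4.20 and 9.70 in MNP. The log2 ratio in FNP was 1.82 (0.36 to 3.52; exact p = 0.0172), which did not pass after adjustment (adjusted p = 0.114). The ratios in MXP (-0.36, -2.34 to 1.52) and MNP (-0.95, -3.03 to 0.83) had intervals across 0. *PITX3* was lower in the talpid2 MNP, at -0.82 (-1.37 to -0.30; exact p = 0.000988, adjusted p = 0.0214). All 8 muscle markers with values were also lower in the talpid2 MNP (median log2 ratio -0.37). Of these, 3 passed the same test without correction (9.97% of all genes with reads). Their part in the fall of *PITX3* was not tested. Of 22 lens and eye markers 2 had values, and their summed reads scaled by depth were 557 and 119 in the talpid2 and control FNP, 1270 and 49.1 in MXP and 58.1 and 73.6 in MNP. Nearly all of these belong to *ASL1*, a lens crystallin of birds, with 493 and 96.2 reads in the talpid2 and control FNP and 1199 and 43.5 in MXP (log2 ratios of 2.63 and 4.79). The second, the lens factor *FOXE3*, had 14.1 and 34.6 reads in FNP, 2.34 and 3.16 in MXP and 5.38 and 17.5 in MNP. Its log2 ratio was -1.02 in FNP (exact p = 0.0186) and -1.45 in MNP (exact p = 0.0217), without correction. Their part in the *PITX3* ratios was not tested. In the other prominences *PITX3* had at most 5.96 reads, and the control FNP was at the floor. Its ratios of 1.09 (-3.16 to 6.60) in FNP and 1.58 (-0.91 to 4.92) in MXP were not distinguishable from 0 at this depth. The same holds for *SHOX* in FNP, at -1.73 (-7.35 to 1.61) on 1 and 4 reads.

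**Figure D4:**
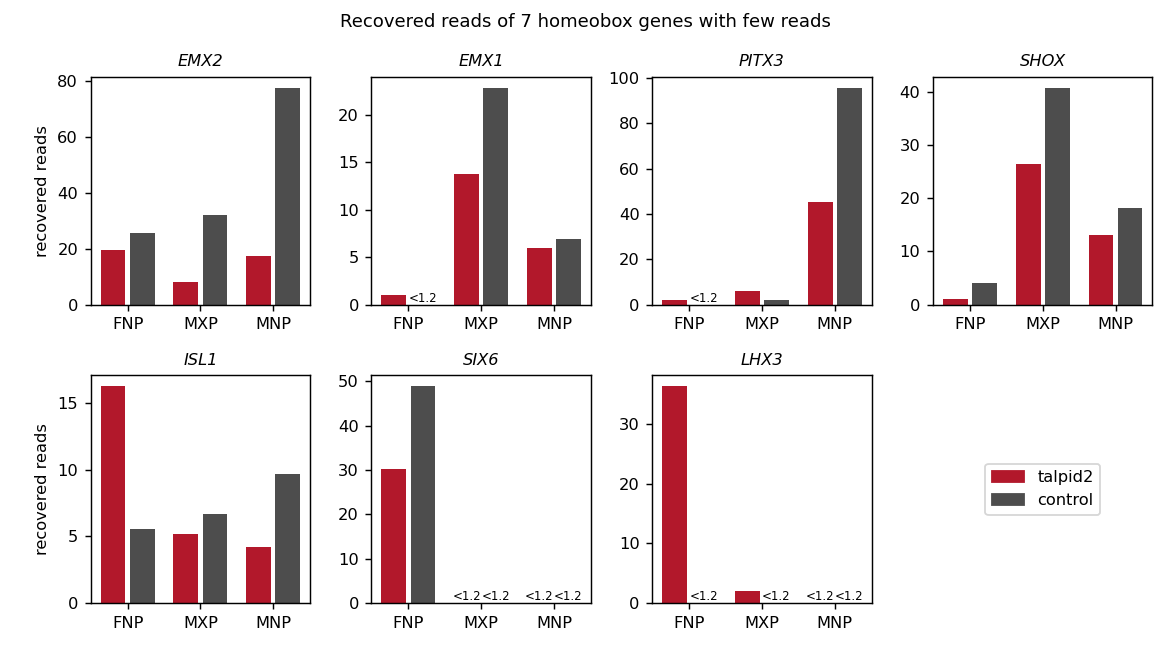
Recovered reads (vertical axis, not scaled by depth) of *EMX2*, *EMX1*, *PITX3*, *SHOX*, *ISL1*, *SIX6* and *LHX3* in each prominence, talpid2 left of control; libraries at the floor are marked as under 1.2 reads. *EMX2* had 17.2 reads in the talpid2 MNP and 77.4 in the control MNP, and *LHX3* had 36.4 reads in the talpid2 FNP.

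*NKX6-2*, known from neural tissue, was lower in the talpid2 FNP (262 and 417 reads in talpid2 and control, log2 ratio -0.40, exact p = 0.000423, adjusted p = 0.00729). Its listed span also holds *INPP5A* on the opposite strand, with a ratio of -0.17, so the reads of *NKX6-2* are uncertain. *TSHZ1* was lower in FNP (-0.40, exact p = 0.0365) and *IRX2* in MXP (-0.31, exact p = 0.0091). *TSHZ2* was higher in FNP (0.52, exact p = 0.041) and lower in MXP (-0.44, exact p = 0.0362). None of these 3 passed after adjustment. For *BARX2*, *CUX1*, *EMX1*, *HHEX*, *IRX1*, *PBX3*, *PKNOX1*, *POU2F1*, *SATB1*, *SHOX*, *SIX6* and *TSHZ3* no prominence passed the uncorrected exact test.

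The third comparison takes the 3 prominences together, with genotype as a term of the same limma fit. The sources do not say whether the 3 libraries of a genotype came from the same embryos, so they may not be independent samples. No homeobox gene passed after adjustment, nor did any of the 10337 genes (0.0%). Without adjustment, p was at most 0.05 for 15 of 40 homeobox genes (14.9% of all genes), 8 higher in talpid2 (6.56%) and 7 lower (8.36%). Among the genes that ranked first were *PAX9* (0.33, SE 0.04), *ZFHX3* (-0.47, SE 0.07), *ZEB2* (-0.35, SE 0.05) and *MSX2* (0.32, SE 0.06), each with a limma adjusted p of 0.257. The others included *CUX2*, *LHX6*, *LHX8* and *MSX1* among the higher and *BARX2*, *EMX2*, *SATB1* and *ZFHX4* among the lower genes. The median absolute genotype difference was 0.19 for the homeobox genes and 0.09 for all genes.

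The ratio had the same sign in all 3 prominences for 21 of the 40 homeobox genes, against 42.2% of all genes. It was positive in all 3 for 11 (20.5% of all genes) and negative for 10 (21.7%). Among the genes grouped as arch factors, *MSX1*, *MSX2*, *LHX6*, *LHX8*, *PITX1* and *HHEX* were positive throughout and *BARX2* was negative throughout. *LHX8* had ratios of 0.59 in FNP, 0.37 in MXP and 0.06 in MNP, the last of which is negative when *GAPDH* is the reference. *PITX1* had ratios of 0.82, 0.18 and 0.16. Among the mesenchyme factors, *PRRX2* (0.01, 0.26 and 0.24) and *PAX9* were positive in FNP, MXP and MNP, while *PRRX1* had 0.47, -0.02 and -0.11. *SATB1* (-0.24, -0.12 and -0.25), *SHOX* (-1.73, -0.62 and -0.23) and *TSHZ1* (-0.40, -0.10 and -0.10) of the same group were negative throughout. Of the TALE factors, *MEIS1* (0.18, -0.14 and -0.26), *MEIS2* (0.46, -0.11 and -0.23) and *PKNOX1* (0.13, -0.16 and -0.12) had positive ratios in FNP and negative ones in both jaws. *PBX3* (-0.10, 0.01 and 0.10) had the opposite signs, and *IRX1*, *IRX2* and *PKNOX2* had neither pattern. No reads were recovered for *LHX8*, *PITX1*, *PRRX1*, *PRRX2*, *MEIS1* and *MEIS2*, so these ratios have no interval.

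Among the 18 arch and mesenchyme partners with values, the median log2 ratio was -0.14 in FNP, 0.00 in MXP and 0.09 in MNP, against 0.13, -0.02 and -0.07 for the homeobox genes and 0, -0.0043 and -0.00020 for all genes. Of the 9 partners with reads, 1 was higher (10.1% of all genes with reads) and 4 lower (11.6%) in the talpid2 FNP in the uncorrected exact test. In MXP 2 were higher (8.63%) and 2 lower (8.59%), and in MNP 2 were higher (8.32%) and 2 lower (9.97%). *TFAP2B* was lower in the talpid2 FNP (-0.78, exact p = 8.70e-42), *OSR1* in MXP (-0.70, exact p = 1.92e-19) and *GBX2* in FNP (-0.68, exact p = 7.92e-08). In both jaws *GBX2* was instead higher in talpid2, at 0.20 in MXP (exact p = 0.0135) and 0.32 in MNP (exact p = 0.00869). *DLX1* was also higher in MXP (0.15, exact p = 0.00247).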

How the data were processed

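The authors sequenced RNA from facial prominences (TruSeq and Nugen Ovation V2 libraries, HiSeq 2000), aligned reads to an Ensembl chick genome and processed them in GeneSpring 12.5; the aligner and assembly are not given in the sources used here. For the deposited log2 values, the authors scaled the libraries, raised values under 1 to 1, took the log2 and subtracted the median of each gene across the 6 libraries. The authors also deposited, as a count, the number of libraries in which a gene lay within their limits; the lower limit is not on the read scale, since 892 of 1087 recovered genes outside the limits in some library had over 3 scaled reads in all 6. A total of 29 of the 40 homeobox genes were within the limits in all 6 libraries. There were 0 columns of other samples.

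Reads (50 bases) were recovered as the whole numbers of bases that gave all 6 values, up to 2000 reads, where fewer than 0.005 solutions were due by chance; with wrong step sizes 0.551% of genes had one. Both exact tests rounded reads to whole numbers, so that a library at the floor entered them as 1 read. Intervals used its unrounded limit of 0.911 to 1.15 reads, and folds against it use 3 reads. The 2-sided exact Audic-Claverie test (named in the study's methods, without correction), 95% Clopper-Pearson intervals and the exact conditional test of equal ratios account for counting error alone (PCR copies are not independent molecules). limma 3.58.1 (R 4.3.3) was fitted on all genes with prominence and genotype (2 residual degrees of freedom); p-values measure only the spread between these libraries. Other steps used Python 3.11.15, numpy 2.4.6, scipy 1.17.1, pandas 2.3.3 and matplotlib 3.10.9. Simulated data were used to test read recovery above the floor, the tests and intervals on reads and the genotype term of limma. Recovery at the floor, folds against the floor and the prominence contrasts were not tested this way. The simulated reads held counting error alone, so they cannot check the exact tests against other variation between libraries. Alternatives were another scaling, a 1.5-fold limit, a pseudocount of 10 reads, read and limit filters, a robust prior and leaving out each library.

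Names of 18 members came from the file's symbols and of 22 from Entrez identifiers through the RefSeq table of GRCg7b; *GAPDH* was named from its description. The members, lists and role groups were chosen with earlier results of these data known. Genes were named where a limma contrast, a 2-fold ratio or the Audic-Claverie test in 2 prominences was passed, for the 10 largest ranges, and for a set list of facial factors; the remaining members are given in counts or briefly. Some members enter the counts and medians but are not reported singly here. The pituitary markers were chosen after values were seen. An epithelium marker list was also computed (7 of 16 genes with values, median log2 ratios 0.18, 0.00 and -0.14 in the FNP, MXP and MNP). So were lists for lens and eye (2 of 22), forebrain (5 of 12), frontonasal (3 of 5) and mandibular (4 of 6) markers.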

Additional observations from a re-analysis of the deposited data

Results flagged for a closer look

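The ratio of talpid2 to control for *MSX1* differed between prominences by a test of the difference itself. It was 0.18 in the FNP and 0.72 in the MNP on the log2 scale, a difference (FNP minus MNP) of -0.54 (2-sided exact conditional test on recovered reads, adjusted p = 0.000626). With genes of at least 10 reads in each of the 4 libraries, *MSX1* was again the 1 homeobox gene called. Over all 5205 genes with reads this comparison called 3.17%, so that 1 of 25 homeobox genes is near the background. The test covers counting error in 1 library per genotype and prominence, and no other homeobox gene with reads met it.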

How the results depend on the processing

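With prominence as a term, the genotype test of the limma fit paired the talpid2 and the control library of each prominence. Each pair holds 1 library per genotype, and the sources do not say whether the libraries of a genotype share embryos. In the limma contrasts, *GAPDH* as reference raised the called homeobox genes to 24 for FNP minus MXP and 25 for FNP minus MNP, and this shifted these differences of all genes by the 0.30 and 0.38 by which *GAPDH* itself differed, and the talpid2 to control ratios by up to 0.11 (MXP). The calls of *CUX1*, *SATB1*, *PAX9* and *ZFHX4* (MNP minus MXP for the last 2, -0.41 and -0.51) were lost with it. Keeping only genes inside the authors' limits in every library gave 10 for FNP minus MNP, of which 9 were among the 16. Leaving out 1 library gave 1 to 12 calls for FNP minus MXP, 0 to 11 for MNP minus MXP and 4 to 9 for FNP minus MNP, all with fewer samples, and 0 to 0 for genotype. A robust prior left 15, 12 and 15 calls. No called contrast changed sign under any alternative. The number of homeobox genes past the fold limit was 9, 5 and 4 in FNP, MXP and MNP at 1.5-fold, 0 in each under that limit filter, and 2 in FNP and 1 in MXP with a pseudocount of 10 reads. With *GAPDH* as reference it was 2 in MNP. Benjamini-Hochberg adjustment reduced the Audic-Claverie calls to 4 in FNP and 4 in MXP. Of the 21 genes with 1 sign in all prominences, *LHX8* lost it with *GAPDH* as reference. Unadjusted genotype calls ranged from 9 to 15 without 1 library. Depth limits *SHOX*, *EMX1*, *LHX3* and *PITX3* outside their main prominence.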
